A study of Mus musculus with 20 samples.

Results

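The genes described here are 10 mouse genes of selenium use and peroxide removal: the selenophosphate synthetases Sephs1 and Sephs2, the glutathione peroxidases Gpx1, Gpx2, Gpx3, Gpx4, Gpx7 and Gpx8, and the thioredoxin reductases Txnrd1 and Txnrd2. They were taken by gene symbol from an expression table with 26305 usable gene entries, and each of the 10 symbols was found. The set was proposed with earlier results of these libraries in view, and which measured values chose it is not recorded. Since Gpx2 had then been among the genes lower in HKO and in DKO than in WT, those comparisons are taken here as the ones it was selected on. The members' values in them are descriptions and support nothing, and the other comparisons may also have been in view.

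The study measured RNA from mouse pancreatic beta cells sorted by fluorescence, in 4 genotypes of 5 libraries each. WT libraries served as controls, IKO cells lacked Foxo1, HKO cells lacked Hnf4a and DKO cells lacked both, and Foxo1 and Hnf4a both encode transcription factors. The knockouts combined floxed Foxo1, floxed Hnf4a or both with RIP-Cre, in which an insulin promoter drives the recombinase, and the sorted cells were marked by RIP-Cre and a ROSA26-tomato reporter. Whether the WT mice carried a floxed allele was not stated. All mice were males of 6 to 8 months on a chow diet, and the labels do not say how many animals gave each library. P-values thus rest on library-to-library spread, part of which may be technical.

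Selenocysteine is an amino acid built from selenium and inserted at a UGA codon that would otherwise stop translation. SEPHS2 makes the selenophosphate from which it is formed and is itself a selenoprotein, whereas SEPHS1 lacks that activity. Glutathione peroxidases reduce hydrogen peroxide or lipid peroxides with glutathione, and thioredoxin reductases keep thioredoxin reduced. Rodent beta cells are known for low activity of catalase and of glutathione peroxidase.

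The codon that carries the catalytic residue separates the members, and it is shown here because Sephs2 and Gpx2, the members that differed most between genotypes, are both selenoproteins. Each line is coding sequence of the GENCODE M21 annotation on GRCm38, 5′ to 3′, with the codon in capitals and 5 codons on either side where the coding sequence allows. TGA is the selenocysteine codon, and the codons of Sephs1, Gpx7 and Gpx8 were placed by alignment with Sephs2 or Gpx4.
Sephs2: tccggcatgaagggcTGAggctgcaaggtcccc
Sephs1: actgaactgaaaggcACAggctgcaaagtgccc
Gpx1: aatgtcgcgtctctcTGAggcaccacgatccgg
Gpx2: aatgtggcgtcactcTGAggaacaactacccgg
Gpx3: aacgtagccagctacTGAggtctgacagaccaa
Gpx4: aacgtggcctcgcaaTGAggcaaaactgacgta
Gpx7: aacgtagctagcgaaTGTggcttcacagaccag
Gpx8: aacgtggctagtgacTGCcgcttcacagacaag
Txnrd1: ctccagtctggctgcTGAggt
Txnrd2: actgtgactggttgcTGAggc

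Of the 10 members, 7 carried 1 in-frame TGA, annotated as selenocysteine in each. Sephs1 has a threonine codon at the aligned place, and Gpx7 and Gpx8 have cysteine codons. In both thioredoxin reductases the TGA is followed by 1 last codon. The Sephs2 codon lies at chr7:127273731-127273733 on the minus strand, in exon 1 of 1 and at codon 63 of 452. The Gpx2 codon lies at chr12:76795256-76795258 on the minus strand, in exon 1 of 2 and at codon 40 of 190. The translated coding sequences of Sephs1 and Sephs2 were 75.2% identical over 391 aligned residues. Within the glutathione peroxidases, identity ran from 31.0% for Gpx3 and Gpx8 to 63.7% for Gpx1 and Gpx2, and Txnrd1 and Txnrd2 were 56.1% identical.

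The values are FPKM, a measure scaled to transcript length and to library size, so that levels can be compared between genes. Library totals recovered from the table ran from 22.6 M to 34.7 M reads. Foxo1 stood at 6.64 ± 1.48 FPKM in WT and 1.11 ± 0.46 in IKO, and at 5.97 ± 1.84 in HKO and 1.40 ± 0.26 in DKO (SD, n = 5). Hnf4a differed less, from 5.56 ± 0.86 FPKM in WT to 3.82 ± 0.35 in HKO, and from 5.39 ± 1.02 in IKO to 3.99 ± 0.34 in DKO. For Hnf4a the exact two-sided permutation p was 0.00794 in HKO against WT, the smallest that 5 against 5 libraries allow, and 0.0317 in DKO against IKO, while limma adjusted over all genes gave 0.0630 and 0.161. A value over the whole gene does not show the deleted part, so the loss of Hnf4a is taken from the labels. Beta cell markers dominated in every library, with summed levels of 268149 to 387752 FPKM over 8 genes. Markers of other cells were present too. Their sums ran from 314 to 1583 FPKM for alpha cells and from 552 to 2644 FPKM for delta, PP and epsilon cells. For ductal cells they ran from 660 to 1796 FPKM. The part of these cells in the members' levels was not tested. All 19 listed transcripts of acinar cells, the enzyme-secreting cells of the pancreas, were in the table, and they summed to 64.0 to 286 FPKM in the WT libraries. The sums were 47.8 to 257 FPKM for IKO, 427 to 1604 FPKM for HKO and 196 to 1511 FPKM for DKO. The acinar regulator Ptf1a was at 0 in all WT libraries. The 3 libraries highest in acinar transcripts were HKO replicates 4 and 5 and DKO replicate 3. Within each genotype, replicates 1 and 2 and replicates 4 and 5 differed less from each other than other libraries did, with a chi-square per degree of freedom of 1.80 to 8.57 in 7 of those 8 pairs against 24.2 to 95.7 in the other 32 pairs. The eighth, WT replicates 4 and 5, was at 22.3, close to the lowest of the others. The close pairs may not be independent animals. Values are therefore also given by library set: replicates 1 and 2, replicate 3, and replicates 4 and 5.

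Txnrd1, the cytosolic thioredoxin reductase, and Gpx4, which reduces lipid peroxides in membranes, were the most abundant members. Over the 20 libraries Txnrd1 averaged 121 FPKM and Gpx4 114 FPKM, above 96.7% and 96.3% of the 12455 genes tested. Gpx1, the widely expressed cytosolic enzyme, averaged 75.7 FPKM, Gpx2, best known from the gut epithelium, 68.3 FPKM, and Gpx3, the secreted plasma enzyme, 42.2 FPKM. Sephs2 averaged 27.5 FPKM, mitochondrial Txnrd2 9.79 FPKM and Sephs1 5.39 FPKM. In WT the libraries of Txnrd1 and Gpx4 overlapped in level, as did those of Gpx2 and Gpx1, of Gpx1 and Gpx3, and of Gpx3 and Sephs2, while Sephs2, Txnrd2, Sephs1, Gpx7 and Gpx8 followed each other without overlap. The most abundant member was Gpx4 in HKO and Txnrd1 in the other genotypes, with overlapping libraries in each case.

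The cysteine-containing peroxidases of the endoplasmic reticulum were scarce. Gpx7 averaged 1.05 FPKM, from 21 to 51 reads a library. Gpx8 reached at most 0.173 FPKM, with 32 reads over all 20, and was not tested. Of the 7 selenoproteins in the set, Txnrd2 had the lowest mean level.

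**Figure D1:**
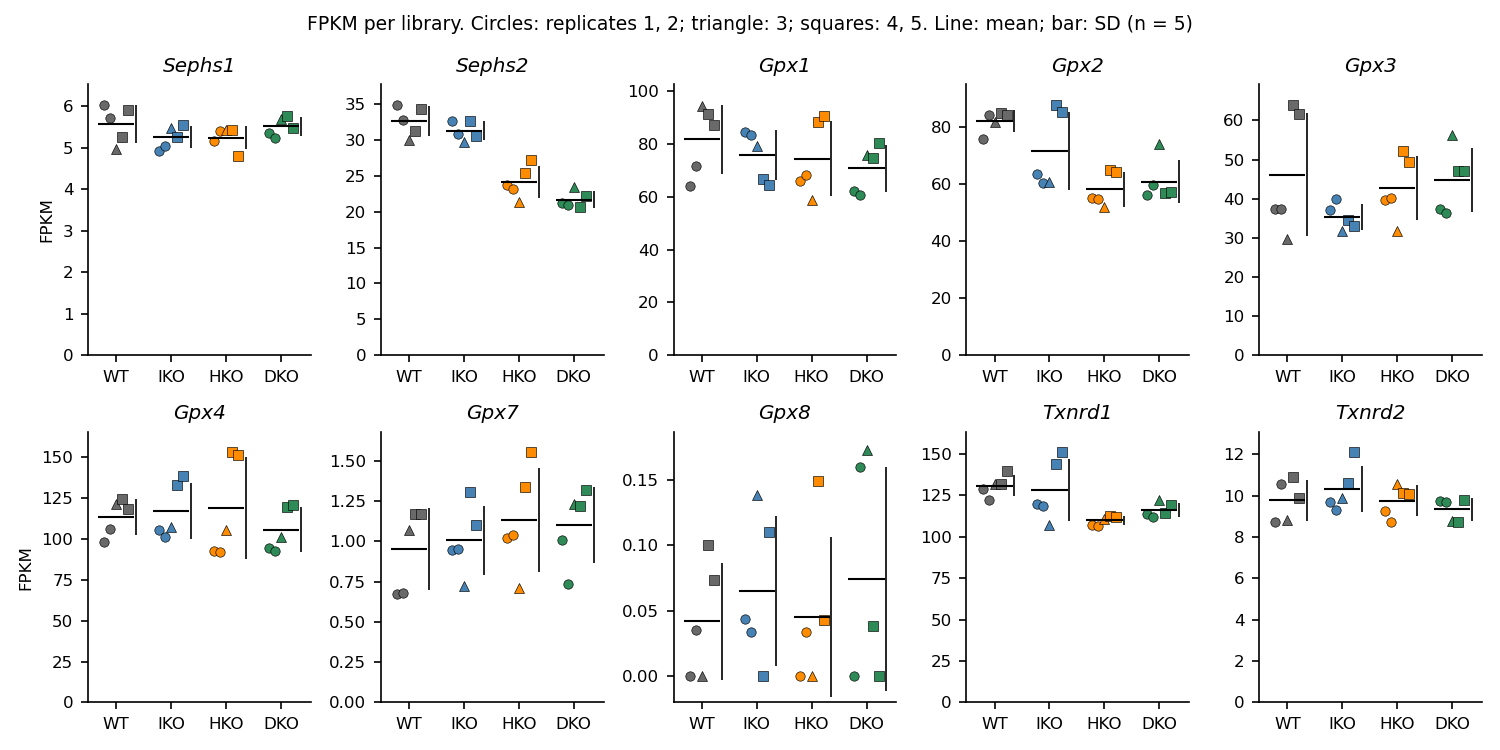
FPKM of the 10 members in each of the 20 libraries by genotype (one panel a gene, linear axes of different range); symbols mark the library sets, lines the mean and side bars the SD (n = 5). Sephs2 lies between 29.7 and 34.9 FPKM in WT and IKO and between 20.6 and 27.2 FPKM in HKO and DKO, with no overlap, while most other members overlap in all genotypes.

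Sephs2 followed the Hnf4a genotype. It was lower in HKO and DKO than in WT, and lower in DKO than in IKO. Sephs2 stood at 34.9, 32.9, 30.0, 31.3 and 34.4 FPKM in WT replicates 1 to 5. The IKO libraries held 32.7, 30.9, 29.7, 32.7 and 30.5 FPKM, within or just below the WT range. The HKO libraries held 23.8, 23.1, 21.3, 25.4 and 27.2 FPKM, each below every WT and IKO library. The DKO libraries held 21.2, 21.0, 23.5, 20.6 and 22.1 FPKM, which overlapped HKO. The means fell into the order WT (32.7 ± 2.08), IKO (31.3 ± 1.33), HKO (24.2 ± 2.26) and DKO (21.7 ± 1.141 FPKM, SD, n = 5), and of these neighbours only IKO and HKO did not overlap.

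The comparison of DKO with IKO asks what the labelled loss of Hnf4a does in cells that also lack Foxo1. Its DKO libraries also entered the comparison with WT. The difference itself uses none of the WT and HKO libraries, but its SE and adjusted p rest on a spread estimated from all 20 libraries. There Sephs2 fell to 69.3% of its IKO level, by 0.52 on the log2(FPKM + 0.5) scale (SE 0.062, 95% interval −0.65 to −0.39), with a limma adjusted p of 4.79e-05. It was lower in 5 of 5 DKO libraries than in any IKO library. Against WT, described without a test, the log2 difference was −0.43 (SE 0.062) in HKO and −0.58 (SE 0.062) in DKO, or 73.9% and 66.4% of the WT level. In IKO against WT it was −0.06 (SE 0.062, 95% interval −0.19 to 0.07), and DKO against HKO gave −0.15 (95% interval −0.28 to −0.02, adjusted p 0.990). The interaction, which tests whether the effect of losing Foxo1 differs between cells with and without Hnf4a, was −0.09 for Sephs2 (95% interval −0.27 to 0.09, adjusted p 0.989).

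Set by set, Sephs2 kept its direction in DKO against IKO. The log2 difference of DKO from IKO was −0.58 in replicates 1 and 2, −0.33 in replicate 3 and −0.55 in replicates 4 and 5. As descriptions, that of HKO from WT was −0.52, −0.48 and −0.31, and that of DKO from WT −0.67, −0.35 and −0.61. When each close pair of libraries was averaged to 1 sample, the DKO against IKO difference was −0.49 and no longer passed (adjusted p 0.103). Omitting any single library left it between −0.55 and −0.50, and it passed each time. Sephs2 shares exonic bases with the opposite-strand entry Gm44729, and the strand setting of the authors' counting was not given.

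Gpx2 was lower in HKO and DKO than in WT, but its IKO libraries were split. The WT libraries held 75.8, 84.2, 82.0, 85.1 and 84.3 FPKM. The HKO libraries held 55.0, 54.9, 51.9, 65.1 and 64.4 FPKM, all below WT. The DKO libraries held 56.4, 59.9, 74.1, 56.8 and 57.4 FPKM, also all below WT, with replicate 3 above the other 4. The IKO libraries held 63.7, 60.5, 60.9, 88.0 and 85.3 FPKM: replicates 1 to 3 were below every WT library, and replicates 4 and 5 were above every one. In order of mean level the genotypes were WT (82.3 ± 3.80), IKO (71.7 ± 13.7), DKO (60.9 ± 7.48) and HKO (58.3 ± 6.05 FPKM), and each neighbouring pair overlapped.

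The differences of Gpx2 from WT are descriptions: −0.50 (SE 0.11) in HKO, or 70.8% of WT, and −0.44 (SE 0.11) in DKO, or 74.1% of WT, on the log2(FPKM + 0.5) scale. With single libraries left out they ran from −0.54 to −0.46 in HKO and from −0.51 to −0.41 in DKO.

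In the other comparisons Gpx2 did not pass. DKO against IKO was −0.22 (95% interval −0.44 to 0.00, adjusted p 0.492), IKO against WT was −0.22 (95% interval −0.44 to 0.00, adjusted p 1) and DKO against HKO was 0.06 (adjusted p 0.990). The interaction was 0.28 (95% interval −0.03 to 0.59, adjusted p 0.989). By set, DKO against IKO ran from −0.60 in replicates 4 and 5 through −0.09 in replicates 1 and 2 to 0.28 in replicate 3, so the direction was not shared. HKO against WT was −0.54, −0.65 and −0.38 in replicates 1 and 2, 3, and 4 and 5. The acinar sum differed between these libraries as well, in no shared direction. DKO replicate 3 and HKO replicates 4 and 5, the highest of their genotypes in Gpx2, had the highest acinar sums of their genotypes. IKO replicates 4 and 5, also the highest of theirs in Gpx2, had the lowest, at 52.7 and 47.8 FPKM against 194 to 257 FPKM, and WT replicates 4 and 5 were lowest too, at 66.5 and 64.0 FPKM against 233 to 286 FPKM. The part of acinar RNA in the Gpx2 levels was not tested. The pseudogene Gpx2-ps1 was listed at 0.552 to 1.46 FPKM, and how the authors' counting divided reads between it and Gpx2 was not given.

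**Figure D2:**
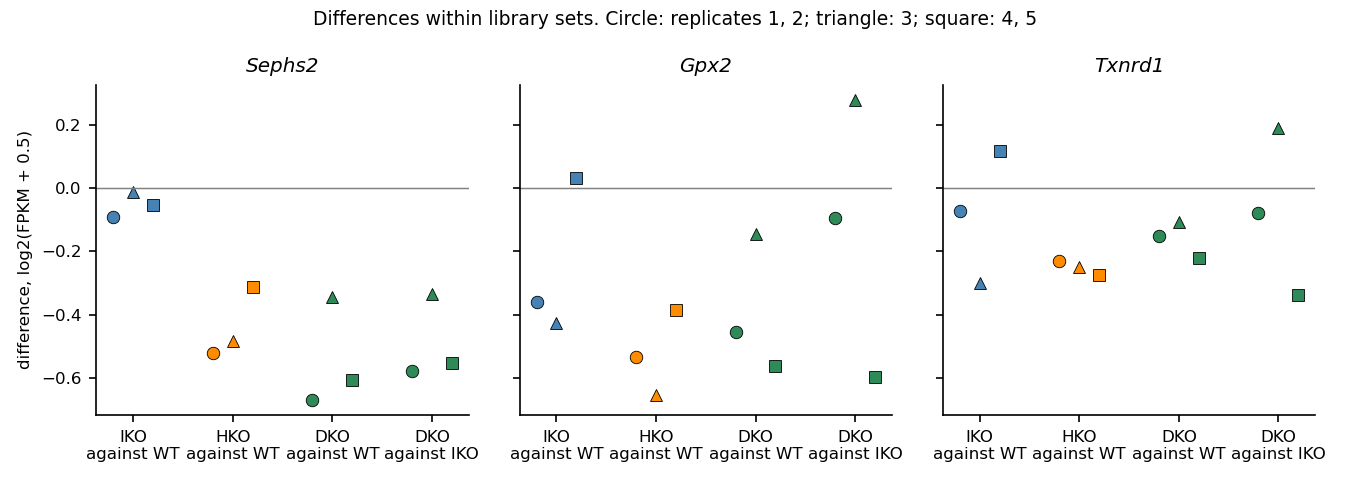
Log2(FPKM + 0.5) differences of Sephs2, Gpx2 and Txnrd1 in 4 comparisons, each split by library set (circle, replicates 1 and 2; triangle, replicate 3; square, replicates 4 and 5; no error bars, since a set holds 1 or 2 libraries a genotype). In DKO against IKO the Sephs2 points lie between −0.58 and −0.33, whereas those of Gpx2 span −0.60 to 0.28. The points of HKO and DKO against WT are descriptions.

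Txnrd1 was lower in HKO than in WT, again a description. The WT libraries held 129, 122, 132, 132 and 140 FPKM, and the HKO libraries 107, 107, 111, 113 and 112 FPKM, with no overlap. The IKO libraries held 120, 118, 107, 144 and 151 FPKM, on either side of the WT range, and the DKO libraries 114, 112, 122, 115 and 119 FPKM. HKO was at 83.9% of WT (log2 −0.25, SE 0.072) and DKO at 88.8% (log2 −0.17, SE 0.072). The difference of HKO from WT was −0.23, −0.25 and −0.27 in the 3 library sets. DKO against IKO gave −0.13 (95% interval −0.28 to 0.02, adjusted p 0.587), and IKO against WT gave −0.04 (95% interval −0.19 to 0.11, adjusted p 1). Txnrd2 averaged 9.76 ± 0.99 (WT), 10.3 ± 1.12 (IKO), 9.75 ± 0.74 (HKO) and 9.33 ± 0.55 FPKM (DKO), with overlapping libraries throughout.

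The remaining peroxidases varied more between libraries of a genotype than between genotypes. Gpx4 was 92.4 and 92.1 FPKM in HKO replicates 1 and 2 against 153 and 151 FPKM in replicates 4 and 5, a ratio of 1.65 between the set means. In WT, IKO and DKO that ratio was 1.19, 1.31 and 1.29. Gpx3 showed the like in WT, where replicates 1 and 2 held 37.4 and 37.5 FPKM and replicates 4 and 5 64.1 and 61.8 FPKM. In IKO replicates 4 and 5 were instead below replicates 1 and 2 for Gpx3 (34.7 and 33.0 against 37.0 and 40.0 FPKM). Gpx1 split likewise: replicates 4 and 5 were above replicates 1 and 2 in WT, HKO and DKO, and below them in IKO (66.9 and 64.3 against 84.6 and 83.5 FPKM). Gpx7 was higher in replicates 4 and 5 than in replicates 1 and 2 in all 4 genotypes, by ratios of 1.27 to 1.73 between the set means, and its genotype means ran from 0.952 ± 0.255 FPKM in WT to 1.13 ± 0.33 in HKO.

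By genotype, Gpx1 averaged 81.8 ± 13.2 (WT), 75.7 ± 9.48 (IKO), 74.4 ± 14.2 (HKO) and 70.8 ± 8.86 FPKM (DKO). Gpx4 was 114 ± 11.1, 117 ± 17.2, 119 ± 31.0 and 106 ± 13.7 FPKM, and Gpx3 46.1 ± 15.7, 35.3 ± 3.28, 42.6 ± 8.20 and 44.8 ± 8.23 FPKM in the same order. Summed over the 6 Gpx genes the level was 325 ± 37.1 (WT), 301 ± 20.6 (IKO), 295 ± 58.0 (HKO) and 284 ± 30.0 FPKM (DKO), within the spread of the libraries. The 95% interval of the DKO against IKO difference was −0.37 to 0.18 for Gpx1, −0.06 to 0.71 for Gpx3 and −0.44 to 0.15 for Gpx4. Changes inside these intervals are not excluded. The intervals are not adjusted for the number of genes and are no limits of detection. Sephs1, unlike its paralog, averaged 5.57 ± 0.45 (WT), 5.25 ± 0.27 (IKO), 5.24 ± 0.27 (HKO) and 5.51 ± 0.22 FPKM (DKO). The DKO against IKO difference of Sephs1 was 0.06 (95% interval −0.06 to 0.19), an interval that does not reach that of Sephs2.

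Over the set, 9 of 10 members passed the filter of a mean of 0.5 FPKM and were tested with limma. In IKO against WT no member passed, against 0.0241% of all 12455 genes. No member had an unadjusted p under 0.05 there, and none passed with voom on recovered reads. In DKO against IKO 1 of 9 members passed, Sephs2, against 1.11% of all genes. In that comparison its libraries were also the only ones of a member not to overlap, against 2.77% of all genes. In DKO against HKO none passed, against 0.00803% of all genes. Sephs2 alone had an unadjusted p under 0.05 there, and voom passed none. In the interaction none passed, against 0.00803% of all genes, no member had an unadjusted p under 0.05, and voom passed none. In the comparisons taken to have chosen the set, nothing is read from the counts. They were 2 members past the threshold, Sephs2 and Gpx2, in HKO against WT, where 0.787% of all genes were, and the same 2 in DKO against WT, where 1.2% were. The libraries of 3 members did not overlap in HKO against WT and those of 2 in DKO against WT, where 2.48% and 3.37% of all genes did not. Gpx2 was not past the threshold in HKO against WT without any 1 of WT replicates 2 to 5 or HKO replicates 1 to 3. In DKO against WT it was not without any 1 of the WT libraries, DKO replicates 1, 2, 4 and 5, HKO replicates 1, 2 and 5 or IKO replicate 1. The median log2 difference of the 9 tested members was −0.13 in DKO against IKO, beside 0.00 over all genes, and −0.06 in IKO against WT, beside 0.01.

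**Figure D3:**
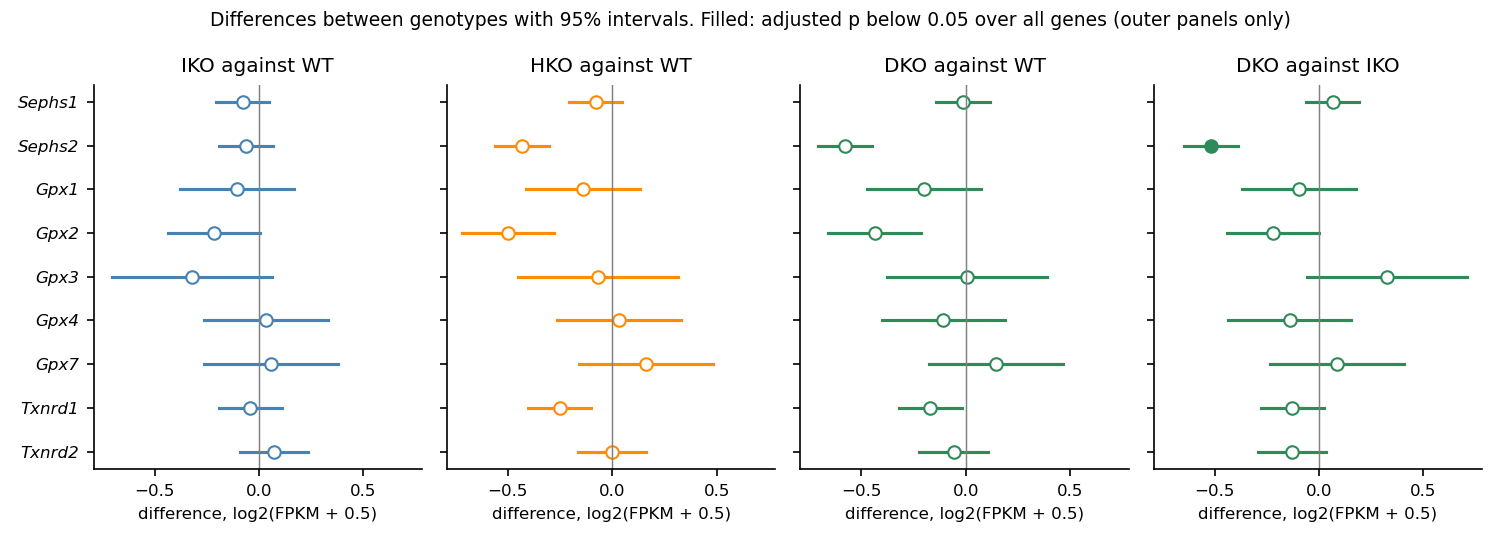
Differences between genotypes for the 9 tested members on the log2(FPKM + 0.5) scale, with 95% intervals from limma. In the outer panels a filled point has an adjusted p under 0.05 over all 12455 genes, which holds for Sephs2 in DKO against IKO, at −0.52. The panels of HKO and DKO against WT, taken to have chosen the set, carry no call.

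Genes of the same pathways outside the set were examined as 7 lists of 85 genes in all, of which 73 were tested. The lists were chosen with earlier results of these data known, so their values in HKO and DKO against WT are descriptions. Nothing is read from the calls or adjusted p-values of listed genes there. In DKO against IKO 3 of the 73 passed, all lower, and the same number passed in HKO against WT and in DKO against WT. These were Dio1, Gstm2 and Hpgds each time. Of all 12455 genes, 1.11% passed in DKO against IKO, 0.787% in HKO against WT and 1.2% in DKO against WT. Most of those were lower too: 94 of 138, 76 of 98 and 94 of 150 in the same order. In IKO against WT, DKO against HKO and the interaction none passed with limma or with voom, and 4, 3 and 3 had an unadjusted p under 0.05. The median log2 difference of the 73 was 0.02 in DKO against IKO and −0.03 in HKO against WT.

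Among the 12 tested of 18 other selenoproteins, 1 passed. Dio1, a selenocysteine deiodinase that activates thyroid hormone, averaged 20.6 ± 3.39 (WT), 17.2 ± 3.78 (IKO), 7.66 ± 1.52 (HKO) and 7.70 ± 1.10 FPKM (DKO). It fell by 1.09 on the log2 scale in DKO against IKO (SE 0.16, limma adjusted p 0.000653), and with close pairs averaged it did not pass (−1.09, adjusted p 0.128). Sepp1, which encodes the selenium carrier selenoprotein P, was at 73.4 ± 15.4 FPKM in WT and 51.1 ± 13.9 in HKO and did not pass (log2 −0.53, SE 0.25, limma adjusted p 0.701). Within each library set it was lower in HKO than in WT, with log2 differences of −0.43 in replicates 1 and 2, −0.60 in replicate 3 and −0.61 in replicates 4 and 5. Its level also differed between the sets: in each genotype replicates 4 and 5, at 36.7 to 61.9 FPKM, were below replicates 1 and 2, at 56.6 to 95.6 FPKM. None of 8 tested genes of selenocysteine synthesis and insertion passed in any comparison, with an unadjusted p under 0.05 for 0 in HKO against WT, 3 in DKO against WT and 2 in DKO against IKO. Scly, which frees selenium from selenocysteine, averaged 107 FPKM in WT and 101 FPKM in DKO. Trnau1ap, which binds the selenocysteine tRNA, averaged 21.0 and 20.9 FPKM.

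Of 16 tested glutathione S-transferase genes, 2 passed. Gstm2, a mu-class transferase, held 27.6, 27.5, 28.1, 27.5 and 27.7 FPKM in WT. The IKO libraries held 28.9, 29.1, 25.1, 21.7 and 21.2 FPKM, with replicates 3 to 5 below all of WT. The HKO libraries held 18.3 to 21.8 FPKM and the DKO libraries 15.8 to 19.3 FPKM. The HKO libraries overlapped those of IKO, and the DKO libraries lay below all of both WT and IKO. DKO against IKO was −0.47 (SE 0.082, adjusted p 0.00451). As descriptions, HKO against WT was −0.45 (SE 0.082) and DKO against WT −0.61 (SE 0.082). With close pairs averaged none of the 3 passed (adjusted p 0.395, 0.384 and 0.0759), and HKO against WT also failed without the 3 acinar-high libraries (adjusted p 0.0699). Hpgds, a sigma-class transferase that makes prostaglandin D2, fell by 1.42 in DKO against IKO (SE 0.27, adjusted p 0.00813), from 9.82 ± 1.85 to 3.32 ± 0.36 FPKM. With close pairs averaged it did not pass (−1.32, adjusted p 0.641). Its HKO libraries were uneven, at 1.96 to 2.35 FPKM in replicates 1 to 3 and 7.15 and 6.59 FPKM in replicates 4 and 5. Gsta4, singled out after its values were seen, had a log2 difference of 1.46 in DKO against WT and did not pass (adjusted p 0.0673). DKO replicate 3, the DKO library with the highest acinar sum, stood at 7.48 FPKM. The other DKO libraries held 0.948 to 2.45 FPKM and the WT libraries 0.250 to 0.706 FPKM. Every DKO library was thus above every WT library, where the libraries of 3.37% of all genes did not overlap. With a library left out the difference ran from 1.05 to 1.67, past the threshold in 1 of 20 fits.

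None of the other 4 lists passed in any comparison. These were glutathione synthesis and recycling (13 tested), thioredoxins and peroxiredoxins (10), superoxide dismutases and catalase (3) and the NRF2 pathway (11), and in DKO against IKO the unadjusted p was under 0.05 for 1, 0, 0 and 0 of them. The levels of the 2 most abundant genes of each list follow, first in WT and then in DKO. Gclm, a subunit of the enzyme that starts glutathione synthesis, stood at 68.8 ± 5.77 and 67.1 ± 4.15 FPKM, and Chac1, which breaks glutathione down, at 129 ± 8.04 and 124 ± 19.0 FPKM. Prdx5 stood at 143 ± 18.0 and 158 ± 27.5 FPKM and Prdx1 at 136 ± 9.81 and 129 ± 8.19 FPKM, both peroxiredoxins, which remove peroxides with thiols. Sod1, cytosolic superoxide dismutase, stood at 329 ± 31.9 and 314 ± 23.2 FPKM and mitochondrial Sod2 at 44.4 ± 6.47 and 46.8 ± 6.50 FPKM. The ferritin genes Ftl1 and Fth1, which store iron, stood at 1429 ± 132 and 590 ± 33.0 FPKM in WT and at 1288 ± 123 and 579 ± 28.0 FPKM in DKO.

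**Figure D4:**
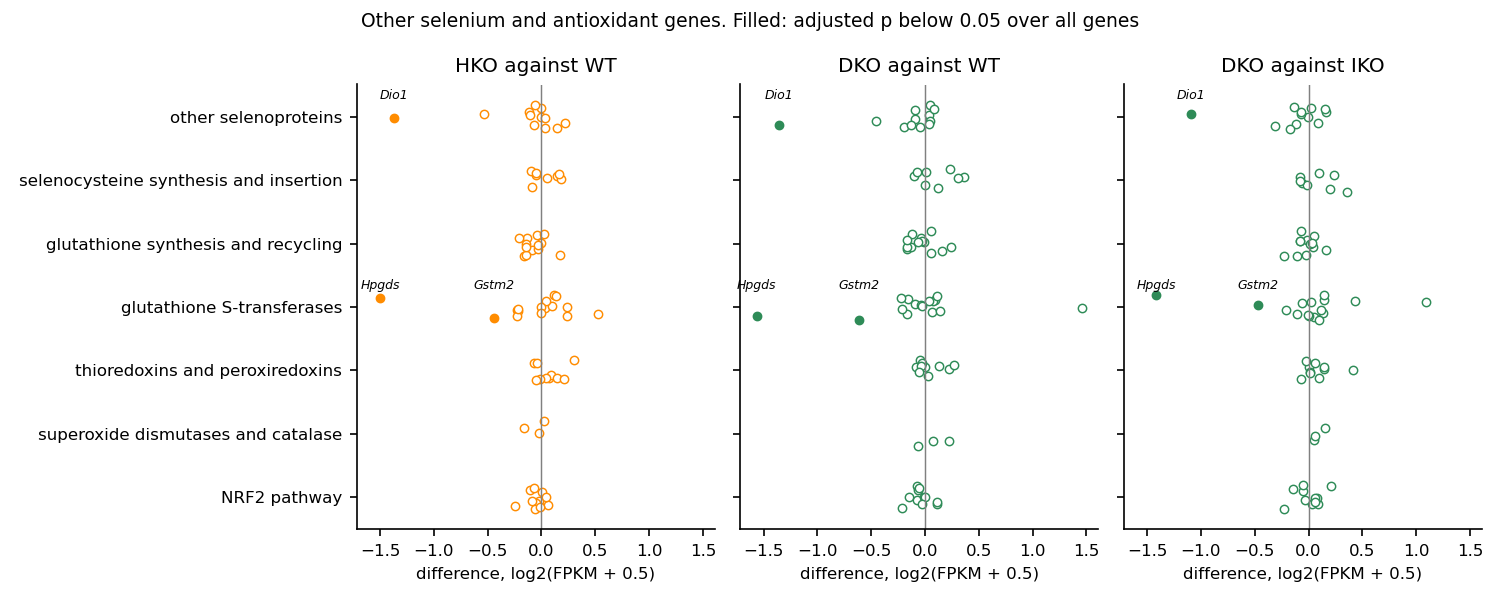
Differences on the log2(FPKM + 0.5) scale for the 73 tested genes of 7 related lists in 3 comparisons; each point is a gene, filled where the limma adjusted p is under 0.05 over all genes, and points are spread vertically for legibility only. The filled points are Dio1, Hpgds and Gstm2, all left of 0, in each panel. The panels of HKO and DKO against WT are descriptions, since the lists were chosen with earlier results known. Nothing is read from the filled points in them.

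The genes most like Sephs2 over the 20 libraries, by Pearson correlation of log2(FPKM + 0.5), were Ahcy (r = 0.950), Sel1l3 (0.944), Cped1 (0.937), Bco1 (0.933) and Elovl2 (0.928). Ahcy splits S-adenosylhomocysteine in the methionine cycle, Bco1 cleaves beta-carotene and Elovl2 lengthens fatty acids. Their log2 differences in DKO against IKO ran from −1.32 for Elovl2 to −0.71 for Ahcy, each past that of Sephs2. Those most like Gpx2 were Txnrd1 (r = 0.872), itself a member, Rnase4 (0.862), Mtfp1 (0.859) and Serpina10 (0.855). The 20 points share genotypes and library sets, so these values are descriptions over the libraries. Gpx2 and Txnrd1 had in common the IKO split, with replicates 4 and 5 the highest of all 20 libraries for both genes.

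The promoters of Sephs2 and Gpx2 are shown because those members were lower in both genotypes without Hnf4a. Each is the RefSeq window from 250 bases before to 50 after the annotated start on GRCm38.p6, 5′ to 3′ on the minus strand.
Sephs2, chr7:127274010-127274309: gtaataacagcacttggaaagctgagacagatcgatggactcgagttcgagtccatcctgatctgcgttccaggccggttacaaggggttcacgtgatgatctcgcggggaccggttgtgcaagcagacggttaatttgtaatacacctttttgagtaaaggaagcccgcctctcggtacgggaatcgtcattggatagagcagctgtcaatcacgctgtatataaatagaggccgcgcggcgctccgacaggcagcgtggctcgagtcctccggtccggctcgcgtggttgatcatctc
Gpx2, chr12:76795505-76795804: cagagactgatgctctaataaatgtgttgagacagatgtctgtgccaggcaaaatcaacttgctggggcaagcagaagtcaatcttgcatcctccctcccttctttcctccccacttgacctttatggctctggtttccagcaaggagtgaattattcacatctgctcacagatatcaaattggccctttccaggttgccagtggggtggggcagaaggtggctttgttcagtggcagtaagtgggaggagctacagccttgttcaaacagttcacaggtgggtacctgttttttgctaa

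Neither window holds, on either strand, the HNF4 motif searched (CAAAGTCCA), the FoxO motif (GTAAACA) or the antioxidant response element (TGACNNNGC), so no letters are in capitals. Among all 32851 RefSeq windows of this length, 0.475%, 3.65% and 12.4% hold them. Over the 16 windows of the 10 members, the HNF4 letters occurred in none, the FoxO letters in 1 of Sephs1 and the antioxidant letters in 1 of Txnrd1. A match is only a match of letters, and its absence says only that these letters are not in these 300 bases.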

How the data were processed

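Directional poly-A libraries were read in paired ends of 42 bases, as the labels' protocols state. The submitters' processing notes name the mm10 build and, without their roles, DESeq2 1.14.1, Subread 1.5.2, featureCounts and STAR 2.5.2b, and the annotation, filters and strand setting were not given in the sources used here. The authors deposited one table of FPKM values with 27179 entries in 20 library columns. Of these, 847 were named NA and 27 carried date-like names, which left 26305. FPKM steps gave whole reads for 100% of the 21006 entries above 0 (tolerance 0.02 read), and each library was scaled to its own total.

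The 12455 genes averaging 0.5 FPKM or more were fitted with limma 3.58.1 in R 4.3.3 on log2(FPKM + 0.5), with all 20 libraries, genotype means only and a trended variance, and p-values were adjusted by Benjamini-Hochberg over all genes in each of 6 comparisons, with a threshold of 0.05. The fit and the read recovery were tested on simulated data. A fold change on this scale understates the change of low genes. Close library pairs entered as separate samples, and averaging them, correlating them, other pseudocounts, filters and scalings, a replicate block, voom on the recovered reads, leaving out each library, and leaving out the 3 acinar-high libraries were tried. The members, gene lists and motifs were chosen with earlier results of these data known. All members were named, with the passing genes of each list, or its 2 most abundant where none passed, and the 5 genes most correlated with each passing member, of which 1 is not reported here. Selenof, Selenoh and Selenov were not matched in the table. Codons and identities were computed from GENCODE M21 with Biopython 1.88, and promoters came from RefSeq. Sequencing depth bounds counting error only.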

Additional observations from a re-analysis of the deposited data

Results flagged for a closer look

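Among 40 groups of 5 libraries (10 members in 4 genotypes), 1 held a library far from the other 4 by Dixon's criterion, which chance alone does in about 5% of groups. Gpx2 in DKO replicate 3 was at 74.1 FPKM, whereas the other DKO libraries lay between 56.4 and 59.9 FPKM, and the gap made up 0.802 of the range. The acinar sum was 1511 FPKM in that library and 196 to 327 FPKM in the other DKO libraries. Without it the log2 difference of Gpx2 in DKO against WT was −0.51, against −0.44 with it, and the part of acinar RNA in this value was not tested.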

How the results depend on the processing

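The number of members past the threshold, a description only in the comparisons with WT, moved with the treatment of the close library pairs. In HKO against WT it was 2, against 0 with close pairs averaged, 0 with them correlated and 1 with libraries scaled to equal medians. Over all settings tried there it ran from 0 to 3, and the limma adjusted p of Txnrd1 fell as low as 0.0316. In DKO against WT the number was 2, against 1 with averaging, with correlation, with equal medians and with no filter. In DKO against IKO it was 1 and fell to 0 with averaging. Leaving out single libraries gave 1 to 2 in both comparisons with WT and 1 in DKO against IKO. The companion lists held 3 passing genes in HKO against WT, DKO against WT and DKO against IKO, against 0, 1 and 0 with averaging, and between 3 and 4 with a library left out. In IKO against WT and in the interaction the companion count was 0 to 1 with a library left out. Over all genes, averaging left 5, 17 and 15 passing genes in those 3 comparisons in place of 98, 150 and 138, with fewer samples fitted, and correlating the pairs left 26, 42 and 26. Voom on recovered reads passed 100, 157 and 133.

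Adding the replicate number as a block raised the companion count to 5 in HKO against WT and to 5 in DKO against WT, with Sepp1 among them (adjusted p 0.02002 and 0.0434), and the count over all genes to 193, 263 and 291. The numbers do not pair the samples by the check made: not every pair of same-numbered libraries correlated above 0.1. Replicate 3 ran from −0.386 to 0.254 and replicate 1 from 0.0810 to 0.480, while replicates 2, 4 and 5 were at 0.108 to 0.350, 0.370 to 0.499 and 0.285 to 0.454. The median between different numbers was −0.161. As a hint from the data, 9 of 20 libraries correlated best with one of their own number, a count that the closeness of replicates 1 and 2 and of 4 and 5 can lower. Outside HKO against WT the block left the number of passing members as it was.

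Foxo1 passed in all other settings but not with close pairs averaged, where its log2 difference was −2.07 in IKO against WT (adjusted p 0.0778) and −1.73 in DKO against HKO (adjusted p 0.447). With a library left out these ran from −2.27 to −2.01 and from −1.85 to −1.62. Hnf4a in HKO against WT, which did not pass (log2 −0.48), passed with equal medians (−0.47), quantile normalization (−0.47) and the replicate block (−0.48). With a library left out it ran from −0.56 to −0.42 and passed without WT replicate 3 or IKO replicate 5. In DKO against IKO it ran from −0.48 to −0.32 and passed without IKO replicate 5. No result changed direction past the threshold in any setting, and the cause of these shifts was not tested. Gpx8, with 32 reads in all, was below what this depth can compare.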

Other observations

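Gpx1 and Gpx2, the peroxidases with the highest sequence identity, differed in opposite directions between the IKO library sets. In IKO, replicates 4 and 5 were below replicates 1 and 2 for Gpx1 (ratio of set means 0.780) and above them for Gpx2 (1.39). Txnrd1 (1.24), Gpx4 (1.31), Gpx7 (1.27) and Txnrd2 (1.20) were on the side of Gpx2, and Gpx3 (0.878) on the side of Gpx1. These are values of 4 libraries, with no test.

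Some genes of selenocysteine synthesis and insertion and of selenium uptake stood above WT in DKO without passing, and they are named here after their values were seen. Of the 8 tested genes of selenocysteine synthesis and insertion 5 had a log2 difference above 0, with a median of 0.07. Over all genes 43.6% of the differences were below 0, with a median of 0.02, and nothing is read from the count. The genes of this list below 0 included Scly, whose DKO libraries were all below those of WT (94.8% of its mean), and Eefsec (92.8%). The libraries of 3.37% of all genes did not overlap in DKO against WT. Lrp8, a receptor for selenoprotein P, averaged 14.8 FPKM in DKO and 11.8 FPKM in WT (log2 0.31, SE 0.11, limma adjusted p 0.264). Its DKO libraries, at 13.5 to 15.9 FPKM, were all above those of WT, at 11.1 to 12.6 FPKM. Secisbp2l, a paralog of the SECIS-binding protein, averaged 6.59 and 5.06 FPKM (log2 0.36, SE 0.17, adjusted p 0.569). Pstk, which phosphorylates the tRNA on which selenocysteine is made, averaged 4.24 and 3.53 FPKM (log2 0.24, SE 0.088, adjusted p 0.348).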
